A study of Homo sapiens with 12 samples.

Results

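KLE cells, a human endometrial cancer line, were compared after 24 h in 200 µM copper chloride (CuCl2) and without it, across all genes of the deposited count table. The comparison took the 3 libraries of copper-treated KLE cells and the 3 libraries of untreated KLE cells, chosen by their labels, which are 6 of the 12 libraries of the study. The other 6 libraries came from Ishikawa cells, a further endometrial cancer line, in the same design, and are used only where the lines are compared. Bulk RNA sequencing of poly(A)-enriched RNA was used throughout. Both KLE groups carried the same genotype, that of 1 cell line, grown in DMEM/F12 with fetal bovine serum, and no transgene or other agent is named. The labels describe the controls both as untreated and as vehicle, without naming a vehicle, and they are called untreated here. Each group held 3 biological replicates that the labels describe as independent, so p-values measure the spread between cultures of 1 line.

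Copper is a cofactor of secreted and mitochondrial enzymes, and cells buffer an excess of it with metallothioneins and export it with the P-type pumps ATP7A and ATP7B. The same pumps load copper onto enzymes of the secretory route, among them ceruloplasmin and the lysyl oxidases that cross-link collagen and elastin. In mitochondria, copper is built into cytochrome c oxidase, whose catalytic subunits are encoded by the mitochondrial genome. Endometrial epithelium rests on a basement membrane of laminins and collagen IV and secretes mucins, protease inhibitors and growth factors.

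The KLE libraries held 14182086 to 16278623 counts and detected 15486 to 15830 genes each, with scaling factors between 0.988 and 1.02. Values per library are given as read counts normalised for depth (CPM), which compare 1 gene between libraries, and levels of different genes are compared only as TPM, transcript abundances that allow for gene length. A gene is said to have risen or fallen when the adjusted p of edgeR's quasi-likelihood test (Benjamini-Hochberg adjustment over all genes tested) was under 0.05. The epithelial label held: all 20 epithelial markers were tested, and EPCAM, an epithelial adhesion molecule, stood at 791 ± 20.6 CPM untreated and 775 ± 11.7 CPM with copper. ESR1 and PGR, the estrogen and progesterone receptors, had 15 and 14 counts over the 3 untreated libraries and were too low to test. Mean expression in untreated KLE and untreated Ishikawa cells had a Pearson r of 0.961 across 12494 genes, given as a description. In bulk RNA, fewer cells of a kind and less RNA per cell cannot be told apart.

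A large share of the transcriptome changed with copper, mostly by small amounts. Of 13031 genes tested, 6617 were called (50.8%), 3330 higher (25.6%) and 3287 lower (25.2%), and in 56.5% of genes the 3 treated libraries did not overlap the 3 untreated ones. The rule that named genes by the size of their change in KLE cells required groups that do not overlap. For those genes a lack of overlap is a description and adds no support. The median log2 fold change of all genes was −0.0017, and that of called genes was 0.33 in size. A change of at least 1 on the log2 scale was seen in 710 genes, of which 242 were higher and 468 lower. The 39 lists of secreted, matrix, transport, mitochondrial and lineage genes held 2268 genes, of which 1150 were expressed enough to test. Of these, 298 rose, 371 fell and 481 were not called, so 58.2% were called, with a median log2 fold change of −0.06. Counts called in a list are to be read beside the shares of all genes, 25.6% higher and 25.2% lower. A count near them is no finding about the list.

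**Figure D1:**
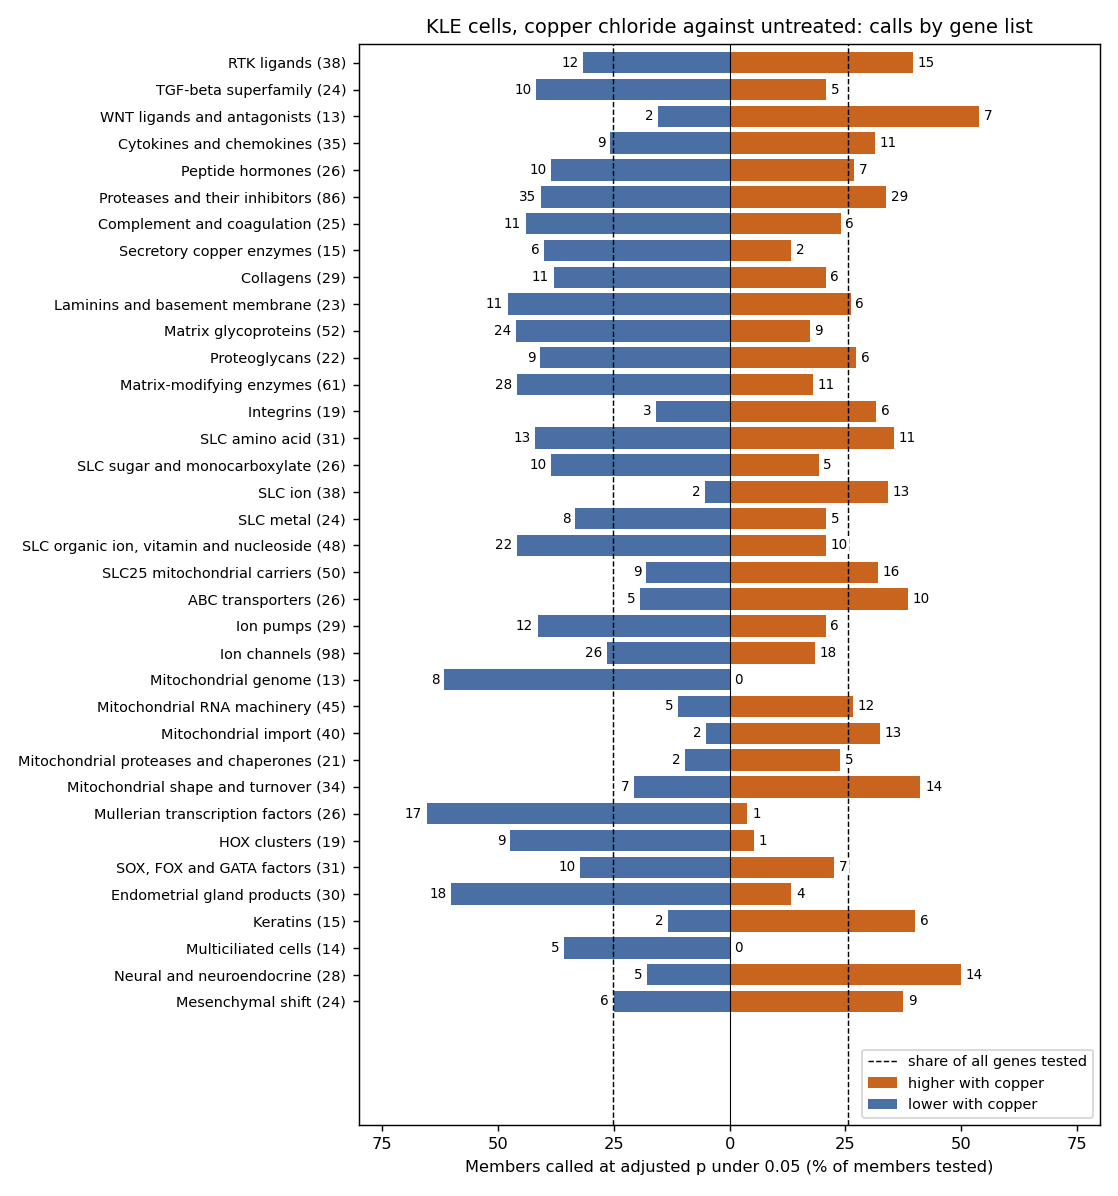
Share of tested members called higher (right) and lower (left) with copper in KLE cells, for the lists with at least 10 tested members. The number tested stands in parentheses, the number called beside each bar, and the dashed lines mark the shares over all genes, 25.6% higher and 25.2% lower. The lists of Müllerian factors, gland products and the mitochondrial genome lie mainly on the left, and those of WNT and neural genes mainly on the right.

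Metallothioneins, small proteins that bind copper and zinc, rose in all 4 tested members of 11 listed, with a median log2 fold change of 3.25. MT2A was by far the most expressed, at 3599 TPM untreated and 14674 TPM with copper. MT1X stood at 42.1, 39.6 and 31.4 CPM untreated and at 339, 388 and 374 CPM with copper, a log2 fold change of 3.28 ± 0.12. Reads of the near-identical MT1 genes may be shared among them. The 250 bases before the start of MT1X (chr16:56682220-56682469 of GRCh38.p14, plus strand, from RefSeq) are shown because they hold the core of the metal response element, searched as TGCNCNC on both strands, 4 times, and the capitals mark those matches. At least 1 such core was found in 49.1% of the 35116 listed promoters of this length, and 4 or more in 1.77%.
MT1X: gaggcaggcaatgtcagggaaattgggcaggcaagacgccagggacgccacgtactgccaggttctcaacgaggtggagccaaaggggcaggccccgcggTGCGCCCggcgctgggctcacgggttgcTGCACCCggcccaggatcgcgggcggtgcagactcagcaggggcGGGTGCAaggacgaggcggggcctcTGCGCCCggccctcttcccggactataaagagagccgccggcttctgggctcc

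Among secreted growth factors, the epidermal growth factor receptor ligands HBEGF, AREG and TGFA rose, while FGF19, midkine and neuregulin 1 fell. Of 72 listed ligands of receptor tyrosine kinases, 38 were tested, 15 rose and 12 fell, with a median log2 fold change of 0.09. HBEGF, heparin-binding EGF-like growth factor, stood at 52.2, 48.3 and 51.6 CPM in the untreated libraries and at 108, 114 and 108 CPM with copper. The groups lay well apart, and the log2 fold change was 1.12 ± 0.05 (SE; edgeR adjusted p = 3.3e-22). AREG, amphiregulin, went from 3.95, 3.63 and 3.85 CPM to 10.8, 11.8 and 13.2 CPM, a log2 fold change of 1.64 ± 0.14 (edgeR adjusted p = 3.9e-13). TGFA, the most expressed of these 3 ligands per length at 164 TPM untreated, rose by 0.24 ± 0.03 on the log2 scale. The list's median changed sign without copper replicate 3, where it was −0.01.

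FGF19 (chromosome 11, 69698232 to 69704642 of GRCh38), an endocrine fibroblast growth factor that acts on bile acid and nutrient metabolism, stood at 60.5, 63.2 and 68.6 CPM untreated and 10.4, 11.4 and 10.7 CPM with copper. All 3 copper libraries lay at about the same low level, a log2 fold change of −2.56 ± 0.07 (edgeR adjusted p = 2.7e-28). MDK, the heparin-binding factor midkine, went from 113, 113 and 111 CPM to 54.5, 60.7 and 55.2 CPM, and its groups did not overlap (log2 fold change −0.99 ± 0.05). NRG1, neuregulin 1, was low throughout, with 64 counts over the untreated libraries and 7 with copper, a log2 fold change of −3.11 ± 0.51. IGF2, insulin-like growth factor 2, rose by 1.96 ± 0.28 on the log2 scale from 1.11 ± 0.673 CPM, and its reads may be shared with the overlapping read-through gene INS-IGF2.

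STC1, stanniocalcin 1, a secreted glycoprotein tied to calcium and phosphate balance, was among the most expressed secreted genes of untreated cells at 525 TPM. It stood at 956, 936 and 951 CPM untreated and 384, 418 and 381 CPM with copper, a log2 fold change of −1.26 ± 0.03 (edgeR adjusted p = 5.4e-29). The replicates lay close together and the groups far apart. Among peptide hormones (77 genes, 26 tested), 7 rose (26.9%) and 10 fell (38.5%), beside 25.6% and 25.2% of all genes. Their median was −0.24, and it was −0.50 without untreated replicate 3, −0.37 without copper replicate 1 and −0.11 without untreated replicate 2. With no count filter the median changed sign to 0.01, with 6 higher and 10 lower. ADM, the vasodilator adrenomedullin, rose by 0.76 ± 0.10. CHGA, the granule protein chromogranin A, went from 1.06, 0.606 and 0.835 CPM to 3.74, 3.78 and 3.29 CPM, and VGF, a neuropeptide precursor, from 5 to 47 counts in all.

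Ligands and antagonists of the WNT pathway rose more often than they fell. Of 38 listed genes 13 were tested, 7 rose and 2 fell, with a median of 0.43, and without untreated replicate 1 the number that fell was 5. With no count filter 8 rose and 5 fell, with a median of 0.03. DKK1, a secreted inhibitor of WNT co-receptors, stood at 1.55, 1.45 and 2.38 CPM untreated and 11.6, 8.56 and 11.5 CPM with copper. Every copper library exceeded every untreated one several-fold (log2 fold change 2.55 ± 0.19, edgeR adjusted p = 1.0e-14). WNT7B, a WNT ligand of epithelia, went from 13.3, 13.8 and 13.2 CPM to 33.6, 30.6 and 33.1 CPM, a log2 fold change of 1.27 ± 0.08. The 2 members that fell were SOSTDC1, an antagonist of WNT and BMP signals, with a log2 fold change of −2.59 ± 0.31, and WNT3A, a WNT ligand, with −1.81 ± 0.34. LGR5, a receptor for R-spondins and one of the 12 genes with the deepest falls over all genes, went from 6.202, 7.57 and 7.39 CPM to 0.623, 0.664 and 0.343 CPM (log2 fold change −3.67 ± 0.25).

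The TGF-beta superfamily leaned the other way, with 24 of 53 listed genes tested, 5 higher, 10 lower and a median of −0.11. The number that rose was 3 when any 1 library except untreated replicate 2 was left out, and the median ranged from −0.18 without copper replicate 2 to −0.07 without untreated replicate 3. LRRC32, a membrane carrier of latent TGF-beta, stood at 15.8, 15.4 and 12.9 CPM untreated and 1.68, 2.12 and 1.51 CPM with copper, a log2 fold change of −3.05 ± 0.16 (edgeR adjusted p = 1.0e-19). GDF15, a cytokine of the family known as a stress hormone, went from 42.99, 34.2 and 39.4 CPM to 18.8, 24.03 and 20.04 CPM. Its groups did not overlap, and the log2 fold change was −0.89 ± 0.09. LTBP2, a latent TGF-beta binding protein of the matrix, rose by 0.48 ± 0.06, and BMP4, a bone morphogenetic protein, rose by 0.51 ± 0.10.

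Cytokines were mostly low. Of 133 listed genes 43 had no count in any KLE library and 35 were tested, of which 11 rose and 9 fell, with a median of 0.02 whose sign changed with the scaling. With a filter of 1 CPM in 3 libraries, and with limma on log2(TPM + 1), 8 rose and 9 fell. IL11, interleukin 11, had 12 counts over the untreated libraries and 100 with copper, at 2.37, 2.12 and 2.06 CPM. The 3 treated libraries were alike and all far above the untreated ones (log2 fold change 3.04 ± 0.39, edgeR adjusted p = 1.7e-08). CXCL8, the neutrophil chemokine interleukin 8, went from 20.9, 15.3 and 17.1 CPM to 38.2, 48.2 and 54.4 CPM, and CCL26, an eosinophil chemokine, from 5 to 57 counts. CX3CL1, the membrane-bound chemokine fractalkine, fell by 2.16 ± 0.33, and TNFSF10, the death ligand TRAIL, fell by 1.53 ± 0.27. MIF, macrophage migration inhibitory factor and the most expressed cytokine of the list at 398 TPM, was not called (log2 fold change 0.02 ± 0.04, edgeR adjusted p = 0.67).

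Proteases and their inhibitors were called in both directions. Of 209 listed genes 86 were tested, 29 rose and 35 fell, which is 74.4% called, beside 50.8% of all genes. The median was 0.01 and turned negative in most other settings. PLAU, the urokinase-type plasminogen activator, rose by 0.64 ± 0.04, and the receptor of that enzyme, PLAUR, rose by 0.57 ± 0.06. The collagenases MMP13 and MMP1 rose from 5 to 91 and from 17 to 195 counts in all. With so few untreated counts, their fitted log2 fold changes of 4.10 ± 0.50 and 3.51 ± 0.33 depend on the prior count of the fit, as does that of IL11. PI3, the elastase inhibitor elafin, rose by 2.59 ± 0.24.

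In the opposite direction, TMPRSS2, a membrane serine protease of secretory epithelia, went from 39.3, 38.1 and 40.3 CPM to 12.5, 11.3 and 9.88 CPM, with every copper library below every untreated one (log2 fold change −1.80 ± 0.08). WFDC2, the gland protein HE4, went from 60.5, 62.2 and 58.6 CPM to 29.8, 29.7 and 26.98 CPM (log2 fold change −1.07 ± 0.06). Of 25 tested complement and coagulation genes among 59 listed, 6 rose and 11 fell, with a median of −0.32. The number that fell was 7 without untreated replicate 3 or copper replicate 3. DESeq2 gave 5 higher and 6 lower, and both limma fits of log2 TPM turned the balance, with 6 higher and 4 lower. F3, tissue factor, rose by 0.51 ± 0.07, and CLU, the extracellular chaperone clusterin, rose by 1.55 ± 0.11. CCN1, a matricellular protein and one of the most expressed secreted genes at 433 TPM untreated, stood at 480.2, 484 and 441 CPM and at 685, 739.95 and 790.1 CPM with copper, a log2 fold change of 0.66 ± 0.06. IGFBP3, a carrier of insulin-like growth factors, went the other way, from 64.6, 70.4 and 68.02 CPM to 27.6, 31.6 and 28.6 CPM. CCN1 was the only riser among the 9 tested CCN and IGF-binding genes, of which 3 fell (44.4% called, beside 50.8% of all genes).

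**Figure D2:**
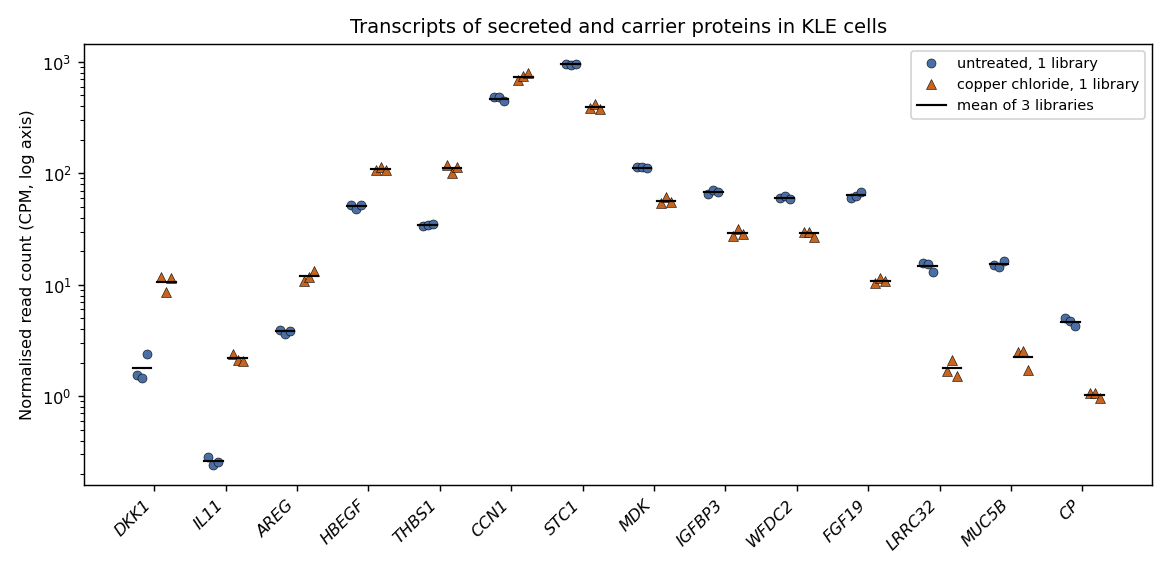
Normalised read counts (CPM, log axis) of 14 transcripts for secreted and carrier proteins in each KLE library, with circles for untreated and triangles for copper-treated libraries and a bar at the mean of 3 libraries. The genes were chosen after their values were seen, and in each of them the groups do not overlap, from DKK1, which rose, to CP, which fell.

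The copper enzymes of the secretory route and the proteins that supply them were measured as a group of 23 genes. Of these 15 were tested, 2 rose and 6 fell, with a median of −0.09, and 1 rose without untreated replicate 3 or copper replicate 1. The share called, 53.3%, was near the 50.8% of all genes, with 13.3% higher and 40.0% lower, beside 25.6% and 25.2%. CP, ceruloplasmin, the copper-carrying ferroxidase, stood at 5.004, 4.72 and 4.24 CPM untreated and 1.06, 1.06 and 0.961 CPM with copper. The treated libraries were all near 1 CPM, a log2 fold change of −2.17 ± 0.24 (edgeR adjusted p = 7.3e-10). LOX, lysyl oxidase, went from 15.6, 15.2 and 15.2 CPM to 8.596, 7.899 and 8.44 CPM (log2 fold change −0.88 ± 0.11). MOXD1, a relative of dopamine beta-hydroxylase, fell by 1.23 ± 0.12, and SOD3, the extracellular superoxide dismutase, fell by 0.84 ± 0.20. ATP7B, the copper pump of the secretory route and of export, fell by 0.55 ± 0.09.

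The related pump ATP7A had a log2 fold change of −0.25 ± 0.09 (edgeR adjusted p = 0.024), a call that was lost without untreated replicate 2, copper replicate 2 or copper replicate 3. LOXL3, a lysyl oxidase homolog, rose by 0.60 ± 0.17. ATOX1, the chaperone that hands copper to both pumps, had 0.18 ± 0.06, and its call was lost without untreated replicate 3 or copper replicate 1. PAM, the copper enzyme that amidates peptide hormones, was the most expressed of the uncalled enzymes per length, at 47.7 TPM untreated and 43.8 TPM with copper (log2 fold change −0.07 ± 0.05). The others not called were LOXL4 at 0.38 ± 0.27, LOXL2 at 0.16 ± 0.12, LOXL1 at −0.09 ± 0.22, AOC2 at 0.30 ± 0.29, AOC3 at 0.08 ± 0.26 and F8 at −0.09 ± 0.22.

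The matrix showed opposite movements among its basement membrane proteins. LAMA3 and LAMB3, chains of the hemidesmosomal laminin, which anchors epithelium to its basement membrane, rose, while the chains of the broadly expressed laminins and the main collagen IV pair fell. Of 38 listed laminins and basement membrane genes 23 were tested, 6 rose and 11 fell, with a median of −0.23. LAMA3 (chromosome 18, 23689443 to 23956222), the alpha chain of the hemidesmosomal laminin, stood at 694, 714 and 717 CPM untreated and 1212, 1143 and 1166 CPM with copper. Its beta chain LAMB3 (chromosome 1, 209614870 to 209652466) stood at 343, 358 and 350.4 CPM and 692, 664 and 672 CPM. In both genes every copper library exceeded every untreated library. The log2 fold changes were 0.73 ± 0.03 for LAMA3 and 0.95 ± 0.03 for LAMB3 (edgeR adjusted p = 2.2e-23 and 1.2e-26).

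The alpha chain LAMA5, found in most epithelial basement membranes, went from 584, 618 and 622 CPM to 503, 459 and 471 CPM. LAMC1, the gamma chain shared by many laminins, went from 764, 720.5 and 728 CPM to 565, 579 and 579 CPM. In both the groups did not overlap, with log2 fold changes of −0.35 ± 0.03 and −0.36 ± 0.03. The beta chains LAMB1 (−0.28 ± 0.04) and LAMB2 (−0.23 ± 0.04) fell too. HSPG2, the heparan sulfate proteoglycan perlecan, fell by 0.49 ± 0.05, and NPNT, the integrin ligand nephronectin, fell by 0.60 ± 0.06. NTN4, a laminin-related netrin, rose from 8.25, 11.7 and 8.54 CPM to 19.6, 17.9 and 17.98 CPM.

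The 250 bases before the starts of LAMA3 (chr18:23872770-23873019 of GRCh38.p14, plus strand) and LAMB3 (chr1:209651375-209651624, minus strand) are shown, with that of IL11 (chr19:55370464-55370713, minus strand), because each holds the AP-1 motif, searched as TGANTCA on both strands. Capitals mark the matches, and the sequences are from RefSeq. They were chosen after the values were seen and because they hold the motif, which 6.57% of the 35116 listed promoters do. LAMB3 has 3 listed starts, and only the window of the start shown held a match. The listed start of LAMA3 lies within the span of the gene given above.
LAMA3: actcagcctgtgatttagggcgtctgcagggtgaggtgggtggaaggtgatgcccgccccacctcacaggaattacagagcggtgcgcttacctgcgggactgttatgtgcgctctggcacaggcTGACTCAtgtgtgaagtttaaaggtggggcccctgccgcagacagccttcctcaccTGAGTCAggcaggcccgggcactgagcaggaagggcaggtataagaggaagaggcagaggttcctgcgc
LAMB3: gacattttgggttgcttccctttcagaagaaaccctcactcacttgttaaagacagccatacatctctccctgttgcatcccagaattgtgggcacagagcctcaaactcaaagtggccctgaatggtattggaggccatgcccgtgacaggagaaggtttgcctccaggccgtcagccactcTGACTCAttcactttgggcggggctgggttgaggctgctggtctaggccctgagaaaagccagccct
IL11: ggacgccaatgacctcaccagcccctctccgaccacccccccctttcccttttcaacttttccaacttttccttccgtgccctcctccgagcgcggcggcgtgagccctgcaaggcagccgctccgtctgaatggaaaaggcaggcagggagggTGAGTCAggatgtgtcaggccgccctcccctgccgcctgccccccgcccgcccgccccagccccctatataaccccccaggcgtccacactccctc

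Collagens were split as well. Of 44 listed chains 29 were tested, 6 rose and 11 fell, with a median of −0.35, and 7 fell without untreated replicate 3 or copper replicate 1. Without copper replicate 3 the median was −0.22, and both limma fits of log2 TPM gave 1 higher and 5 lower. COL4A1, a chain of the ubiquitous collagen IV network, stood at 17.8, 18.6 and 18.05 CPM untreated and 8.35, 8.36 and 8.92 CPM with copper. Its partner COL4A2 stood at 26.2, 29.9 and 26.1 CPM and 13.02, 14.9 and 14.4 CPM, so both were lower in every copper library (log2 fold changes −1.09 ± 0.10 and −0.96 ± 0.08). COL4A3 and COL4A4, chains of the specialised collagen IV network, moved the other way. COL4A4 went from 29.04, 30.7 and 31.1 CPM to 41.5, 38.5 and 41.9 CPM, and COL4A3 from 2.61, 2.79 and 2.38 CPM to 5.23, 4.05 and 4.805 CPM (log2 fold changes 0.42 ± 0.06 and 0.86 ± 0.20, edgeR adjusted p = 5.7e-07 and 4.8e-04). COL4A5, which joins that network, had −0.52 ± 0.08, a value not called on the TPM scale. COL26A1, a short collagen, fell by 1.57 ± 0.23, and COL8A2, a collagen VIII chain, fell by 1.14 ± 0.28.

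These chains lie in head-to-head pairs. COL4A1 and COL4A2 are read in opposite directions on chromosome 13 from starts with 126 bases between them. COL4A4 and COL4A3 are read likewise on chromosome 2 from starts with 418 bases between them. The stretch between COL4A1 and COL4A2 (chr13:110307158-110307283 of GRCh38.p14, given on the plus strand, from RefSeq) is shown as the sequence that the 2 falling genes share. It is 80.2% G and C over 126 bases, against a median of 58.0% over the 250-base windows of all listed promoters, so the lengths differ. These 126 bases hold no AP-1 match.
COL4A1-COL4A2: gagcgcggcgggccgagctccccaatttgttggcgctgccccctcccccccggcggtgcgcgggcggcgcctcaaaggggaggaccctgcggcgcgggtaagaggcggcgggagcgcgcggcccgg

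In all, 6 short motifs were searched in the promoters of the named secreted and matrix genes. The AP-1 motif was found in 6 of the 33 genes that rose and have a listed promoter (18.2%) and in 3 of the 29 that fell (10.3%), against 8.06% of all 27305 genes. The TEAD motif GGAATG was found in 33.3% and 17.2%, against 14.3% of all genes, and the metal response core in 66.7% and 72.4%, against 53.0%. The antioxidant response motif TGANNNNGC was found in 39.4% and 44.8%, against 40.3%. The ETS motif CAGGAAGT and the heat shock element were in none of these promoters, against 3.19% and 0.557% of all genes. Motifs were searched on both strands, matches of different motifs may overlap, and a match is a description of letters only.

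Integrins, receptors for the basement membrane and other matrix, moved in both directions. Of 26 listed chains 19 were tested, 6 rose and 3 fell, which is 47.4% called, beside 50.8% of all genes. The median was 0.09, but 5 rose and 6 fell with upper-quartile scaling. Without untreated replicate 1, 1 chain fell. ITGA3, the alpha chain of a receptor of the hemidesmosomal laminin, stood at 751, 789.7 and 768 CPM untreated and 1102, 1066 and 1071 CPM with copper, with no overlap (log2 fold change 0.49 ± 0.03). ITGA2, the alpha chain of a collagen receptor, rose by 0.58 ± 0.05, and ITGB8, which binds latent TGF-beta, rose by 0.37 ± 0.04. ITGA6, the hemidesmosome alpha chain, had 0.15 ± 0.03. Its partner ITGB4 had 0.09 ± 0.03 (edgeR adjusted p = 0.017), a call lost without untreated replicate 1, copper replicate 1 or copper replicate 2. ITGB3, the beta chain of the vitronectin receptor, fell by 0.36 ± 0.04.

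**Figure D3:**
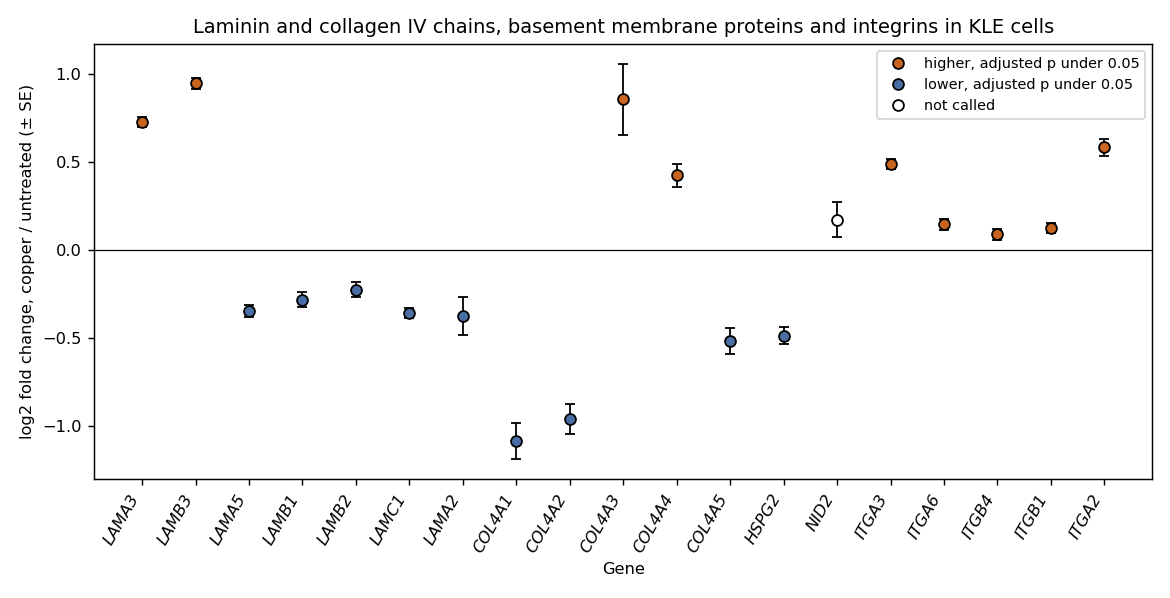
Log2 fold change with copper (± SE) of laminin and collagen IV chains, other basement membrane proteins and integrins in KLE cells, from 3 libraries per group. Filled points were called, in orange if higher and in blue if lower, and open points were not. LAMA3 and LAMB3 lie above 0, with COL4A3 and COL4A4, and COL4A1 and COL4A2 lie near −1. The genes were chosen after their values were seen.

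Structural matrix glycoproteins fell more often than they rose. Of 78 listed genes 52 were tested, 9 rose and 24 fell, with a median of −0.48. FBN2, the microfibril protein fibrillin 2, stood at 247, 245 and 249 CPM untreated and 102, 104 and 103 CPM with copper (log2 fold change −1.26 ± 0.04, edgeR adjusted p = 3.8e-28). MFAP2, a protein of the same microfibrils, fell by 1.75 ± 0.15. THBS1, thrombospondin 1, an activator of latent TGF-beta, went from 33.5, 34.3 and 34.9 CPM to 118, 101 and 114 CPM, against the direction of most of the list (log2 fold change 1.70 ± 0.06). FN1, fibronectin, stood at 95.4, 103 and 101 CPM and 113, 111 and 111 CPM, with a log2 fold change of 0.16 ± 0.04 that was not called on the TPM scale.

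Proteoglycans (43 listed, 22 tested) gave 6 higher and 9 lower, with a median of −0.47. CD44, the hyaluronan receptor and the most expressed of them at 372 TPM untreated, stood at 385, 382 and 373 CPM and at 679, 671 and 674 CPM with copper. Its replicates were tight and its groups far apart (log2 fold change 0.83 ± 0.03, edgeR adjusted p = 5.3e-25). The syndecans, membrane heparan sulfate proteoglycans, differed among themselves. SDC1 rose by 0.60 ± 0.05, whereas SDC3 fell by 0.94 ± 0.08 and SDC2 fell by 1.28 ± 0.32. Of 61 tested enzymes that modify the matrix, 11 rose and 28 fell, with a median of −0.11. P3H2, a collagen prolyl hydroxylase of basement membranes, rose by 1.14 ± 0.13. CEMIP, a hyaluronan-degrading protein, fell by 1.66 ± 0.30, and TGM2, the cross-linking transglutaminase 2, went from 838, 852 and 859.99 CPM to 739.7, 709 and 712 CPM (log2 fold change −0.24 ± 0.03).

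Fibroblast markers were called only lower, in a share near that of all genes. Of 18 markers 13 were tested, 4 fell and none rose. The 30.8% lower stand beside 25.2% of all genes, and 50.8% of all genes were called in either direction. The number that fell ranged from 1 without untreated replicate 3 or copper replicate 3 to 9 without untreated replicate 1. It was 2 with DESeq2, 2 and 1 in the limma fits of log2 TPM, and 5 with limma-voom. The markers had a median of −0.68. Their summed level was 261 to 312 CPM untreated and 164 to 199 CPM with copper. Most of it was FBLN1, fibulin 1, and without it the sums were 40.7 to 80.7 CPM and 29.5 to 52.7 CPM, which overlap. DCN, the defining fibroblast proteoglycan decorin, varied within both groups, at 9.37, 21.6 and 23.4 CPM untreated and 15.6, 11.2 and 4.599 CPM with copper, and was not called. With the fibroblast markers left out of the matrix lists, the collagens gave 6 higher and 9 lower with a median of −0.25, the glycoproteins 9 higher and 23 lower with a median of −0.53, and the proteoglycans 6 higher and 9 lower with a median of −0.32 instead of −0.47. Endothelial markers fell in 4 of 8 tested genes and none rose, beside 25.2% of all genes lower and 50.8% called in either direction. The number that fell was 2 without untreated replicate 3 or copper replicate 3. It was 1 with DESeq2 and 2 in both limma fits of log2 TPM. Endothelial markers summed to 48.7 to 52.1 CPM untreated and 29.4 to 32.9 CPM with copper, most of it EGFL7. Leukocyte markers went the other way, with 3 higher and 1 lower of 5 tested and a median of 0.42. With DESeq2 and in both limma fits of log2 TPM, 2 rose and none fell. Leukocyte markers summed to 830 to 861 CPM and 994 to 1010 CPM, and without LCP1 and CD68 to 6.13 to 7.84 CPM and 7.04 to 7.97 CPM. PTPRC, the defining leukocyte surface protein, had 19 and 23 counts. The part of such cells in the matrix results was not tested.

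Transporters were called in both directions, with contrasts between carriers of related substrates. Phosphate carriers differed: SLC34A2, a sodium-phosphate cotransporter of the apical membrane, stood at 104, 106 and 107 CPM untreated and 31.7, 35.3 and 30.2 CPM with copper. SLC20A1, a phosphate carrier of most cells, went from 167, 173 and 177 CPM to 284, 275 and 276 CPM. One was lower and the other higher in every copper library (log2 fold changes −1.70 ± 0.05 and 0.69 ± 0.04, edgeR adjusted p = 5.9e-27 and 6.1e-20). Of 73 listed ion carriers 38 were tested, 13 rose and 2 fell, with a median of 0.14. Both limma fits of log2 TPM gave 7 higher and 3 lower, with medians of 0.04 and 0.06. By edgeR 39.5% were called, beside 50.8% of all genes, and 34.2% were higher, beside 25.6%. The other member that fell was SLC26A6, an anion exchanger, at −0.28 ± 0.10, a call that was lost without untreated replicate 3, copper replicate 1 or copper replicate 2.

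Amino acid carriers (55 listed, 31 tested) gave 11 higher and 13 lower, with a median of 0.01 that was −0.03 with upper-quartile scaling. The balance turned with DESeq2 (13 higher, 8 lower), in both limma fits of log2 TPM (10 and 8), with no count filter (13 and 12) and without untreated replicate 3 (12 and 11). SLC7A5, the large neutral amino acid carrier LAT1, went from 922, 941 and 944 CPM to 1514, 1409 and 1514 CPM (log2 fold change 0.66 ± 0.03). Its heavy chain SLC3A2 went from 236, 255 and 265 CPM to 384, 369 and 390.5 CPM (log2 fold change 0.60 ± 0.04). SLC7A11, the cystine-glutamate exchanger that shares this heavy chain, rose by 0.61 ± 0.03, so both pairs were higher in every copper library. SLC6A20, a proline carrier, fell by 1.32 ± 0.10, SLC43A1, a further neutral amino acid carrier, fell by 1.27 ± 0.17, and SLC16A10, an aromatic amino acid carrier, fell by 1.15 ± 0.16.

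Sugar and monocarboxylate carriers gave 5 higher and 10 lower of 26 tested, with a median of −0.14. Without untreated replicate 3 the median was −0.07 and without copper replicate 3 −0.09. The number that rose was 2 without untreated replicate 2 and 3 without untreated replicate 1, copper replicate 1 or copper replicate 3. SLC2A1, the glucose carrier GLUT1, stood at 714, 739.9 and 721 CPM untreated and 575, 552 and 559.7 CPM with copper (log2 fold change −0.37 ± 0.03). The orphan carrier SLC16A14 fell by 1.86 ± 0.11 and SLC16A9, a carnitine carrier, fell by 1.80 ± 0.17. SLC5A3, the myo-inositol carrier, rose by 0.39 ± 0.04.

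Metal carriers gave 5 higher and 8 lower of 24 tested among 32 listed, with a median of −0.0071. The share called, 54.2%, was near the 50.8% of all genes. SLC30A1, the zinc exporter of the plasma membrane, stood at 110.4, 117 and 107 CPM untreated and 202, 192 and 179 CPM with copper (log2 fold change 0.78 ± 0.04). SLC40A1, the iron exporter ferroportin, went from 15.9, 21.7 and 20.7 CPM to 7.79, 10.1 and 11.1 CPM (log2 fold change −1.02 ± 0.13). SLC39A8, an importer of zinc and manganese, went from 245, 237 and 243 CPM to 165, 168 and 158 CPM (log2 fold change −0.56 ± 0.04). All 3 had groups that did not overlap, which the rule for naming them required. SLC31A1, the high-affinity copper importer CTR1, stood at 79.5, 79.5 and 82.3 CPM and 84.03, 77.7 and 79.97 CPM, and was not called (log2 fold change 0.00 ± 0.05, edgeR adjusted p = 0.97).

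Carriers of organic ions, vitamins and nucleosides fell more often than they rose, with 10 higher and 22 lower of 48 tested and a median of −0.28. SLCO2B1, an organic anion uptake carrier, went from 6.34, 7.39 and 6.62 CPM to 0.934, 1.66 and 1.65 CPM (log2 fold change −2.27 ± 0.21). SLC47A1, a proton-coupled exporter of organic cations, fell by 1.14 ± 0.15, and SLCO1B3, an organic anion carrier best known from liver, rose by 2.37 ± 0.35. Of 26 tested ABC transporters 10 rose and 5 fell, with a median of 0.14. ABCC2, an exporter of glutathione conjugates, went from 1.48, 1.88 and 1.798 CPM to 6.17, 5.84 and 5.77 CPM, and ABCG2, a drug efflux pump, from 1.27, 1.39 and 1.48 CPM to 3.55, 2.66 and 2.06 CPM.

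Channels gave 18 higher and 26 lower of 98 tested among 285 listed, with a median of −0.11 that was −0.07 without untreated replicate 3. The share called, 44.9%, was under the 50.8% of all genes. KCNE3, a regulatory subunit of potassium channels in secretory epithelia, stood at 286, 273 and 269.6 CPM untreated and 77.1, 94.4 and 75.1 CPM with copper (log2 fold change −1.75 ± 0.09, edgeR adjusted p = 5.4e-06). BEST1, a calcium-activated chloride channel, rose by 1.49 ± 0.13, and TRPV3, a calcium-permeable channel of epithelia, rose by 1.42 ± 0.19. Of 29 tested ion and lipid pumps 6 rose and 12 fell, with a median of −0.09. ATP8B1, a phospholipid flippase of the apical membrane, went from 323, 318 and 328 CPM to 195, 199 and 187 CPM (log2 fold change −0.74 ± 0.03), and ATP13A3, a polyamine pump, rose by 0.41 ± 0.03. Of 4 tested aquaporins, AQP1 was the only one called, at −0.76 ± 0.29, and lost its call without untreated replicate 3, copper replicate 1 or copper replicate 3.

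Transcripts of the mitochondrial genome were lower with copper. Together its 13 genes for proteins held 6.82, 5.99 and 5.91% of all counts in the untreated libraries and 4.05, 4.72 and 4.47% in the treated ones. The groups did not overlap, and the difference of the means, 6.24 ± 0.504% and 4.41 ± 0.337% (SD, n = 3), was −1.83 percentage points with an exact two-sided permutation p of 0.10, the smallest that 3 against 3 allows. By edgeR 8 of the 13 genes fell, none rose and the median log2 fold change was −0.38. The count of 8 depends on single libraries: 3 fell without copper replicate 1 or copper replicate 3, 5 without untreated replicate 2 or copper replicate 2, 6 without untreated replicate 3 and 8 without untreated replicate 1. It also depends on the test, with 9 called lower by DESeq2, 11 in both limma fits of log2 TPM and all 13 by limma-voom, and none called higher in any of these fits. Over the 6 fits that leave out 1 library, the median lay between −0.46 and −0.29.

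Cytochrome c oxidase has 3 core subunits encoded by this genome. MT-CO1 (mitochondrial genome, 5904 to 7445) stood at 19024, 16863 and 16615 CPM untreated and 8885, 10965 and 10213 CPM with copper, a log2 fold change of −0.80 ± 0.11 (edgeR adjusted p = 0.0038). MT-CO3 went from 5232, 4569 and 4464 CPM to 2700.4, 3371 and 3125 CPM (log2 fold change −0.63 ± 0.12, edgeR adjusted p = 0.011). MT-CO2 had −0.38 ± 0.12 and was not called (edgeR adjusted p = 0.061). Both called subunits kept their calls when any 1 library was left out. The other called genes were the complex I subunits MT-ND4 (−0.33 ± 0.08), MT-ND5 (−0.51 ± 0.10) and MT-ND6 (−0.63 ± 0.12), the ATP synthase subunits MT-ATP6 (−0.43 ± 0.09) and MT-ATP8 (−0.55 ± 0.14), and MT-CYB of complex III (−0.25 ± 0.08).

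MT-ND4, MT-ND5, MT-ND6, MT-ATP6 and MT-ATP8 each lost their call without copper replicate 1. MT-CYB lost it without untreated replicate 2, untreated replicate 3, copper replicate 2 or copper replicate 3. MT-ND6 and MT-ATP6 lost theirs without copper replicate 3 too, MT-ND4 without untreated replicate 2, copper replicate 2 or copper replicate 3, and MT-ATP8 without any library except untreated replicate 1. The complex I subunits MT-ND1 (−0.17 ± 0.10), MT-ND2 (−0.19 ± 0.09), MT-ND3 (−0.33 ± 0.18) and MT-ND4L (−0.23 ± 0.14) were not called. MT-ATP8 overlaps MT-ATP6 and MT-ND4L overlaps MT-ND4, so reads may be shared. MT-ND6 lies on the other strand, and whether the counting used strand is not given in the sources used here.

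**Figure D4:**
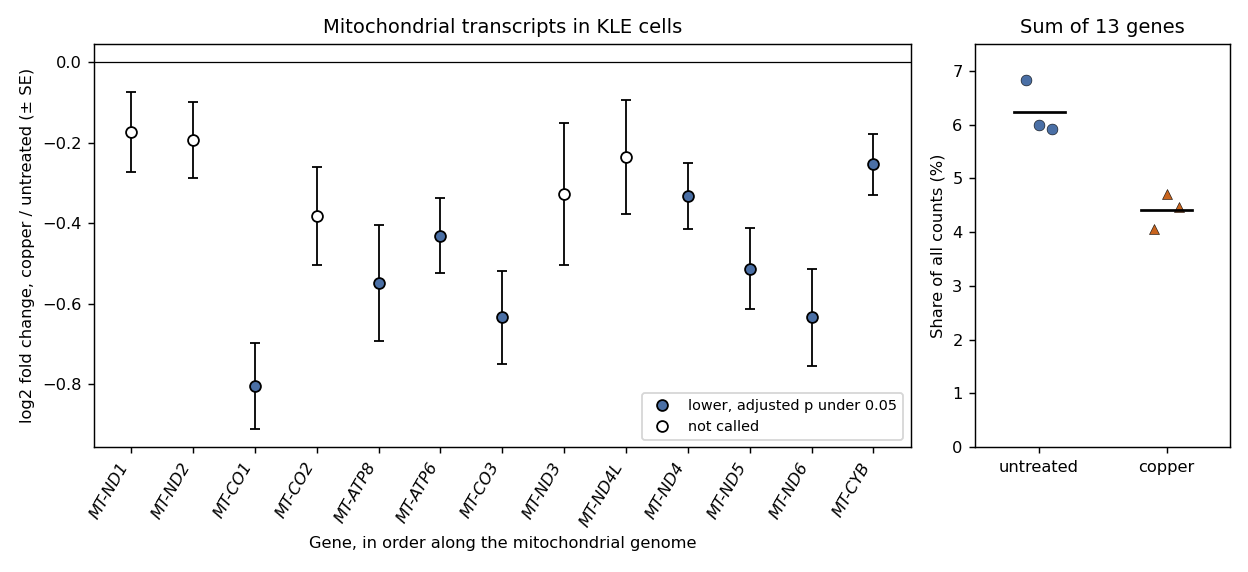
Left, log2 fold change with copper (± SE) of the 13 mitochondrial genes for proteins in KLE cells, in genome order, with called genes filled. Right, their summed share of all counts in each library, with a bar at the mean of 3 libraries. All 13 points lie below 0, with MT-CO1 lowest at −0.80, and the treated libraries lie at 4.05 to 4.72% against 5.91 to 6.82% untreated.

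Nuclear genes for mitochondria moved in both directions. Of 45 tested genes for copying, transcribing and processing mitochondrial nucleic acids, 12 rose and 5 fell, with a median of 0.06. The share that rose, 26.7%, was near the 25.6% of all genes, and 37.8% were called in all, beside 50.8% of all genes. POLRMT, the mitochondrial RNA polymerase, stood at 52.01, 57.95 and 55.8 CPM untreated and 48.4, 45.7 and 49.7 CPM with copper (log2 fold change −0.21 ± 0.06). TFAM, the factor that packages and transcribes mitochondrial DNA, had 0.15 ± 0.05, a call lost without copper replicate 1. REXO2, a mitochondrial exoribonuclease, rose by 0.54 ± 0.05, and LRPPRC, which stabilises mitochondrial mRNA, rose by 0.16 ± 0.03. Of 40 tested import genes 13 rose and 2 fell, with a median of 0.11, and 8 rose without untreated replicate 1 or copper replicate 3. The share called, 37.5%, was under the 50.8% of all genes. DESeq2 gave 7 higher and 2 lower, both limma fits of log2 TPM 6 and 2, and upper-quartile scaling 9 and 3. HSPA9, the chaperone that pulls proteins into the matrix, went from 745, 725 and 731 CPM to 883, 895 and 889 CPM (log2 fold change 0.28 ± 0.03), and its exchange factor GRPEL1 rose by 0.29 ± 0.05.

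Of 34 tested genes for mitochondrial shape and turnover, 14 rose and 7 fell, with a median of 0.06, and 4 fell without untreated replicate 3. With all libraries 41.2% rose and 20.6% fell, beside 25.6% and 25.2% of all genes. PINK1, a kinase that marks damaged mitochondria, stood at 47.1, 51.9 and 48.2 CPM untreated and 72.4, 71.6 and 74.1 CPM with copper (log2 fold change 0.57 ± 0.05). NIPSNAP1, a matrix protein linked to mitophagy, went the other way, from 109, 109 and 105 CPM to 67.7, 69.1 and 69.7 CPM (log2 fold change −0.65 ± 0.05). Of 50 tested carriers of the inner membrane, 16 rose and 9 fell, with a median of 0.07 that was 0.04 without untreated replicate 1 or copper replicate 1. With limma on log2(TPM + 1) 10 rose and 9 fell, and with upper-quartile scaling 15 rose and 13 fell. SFXN5, a sideroflexin, rose by 0.69 ± 0.12, SLC25A20, the acylcarnitine carrier, rose by 0.50 ± 0.10, and SLC25A23, a carrier of ATP and phosphate, fell by 0.42 ± 0.04.

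Transcription factors of the Müllerian duct, from which the endometrium develops, fell in most tested cases. Of 42 listed factors 26 were tested, 1 rose and 17 fell, with a median of −0.38, and the 1 that rose, FOXO1 at 0.18 ± 0.05, lost its call without untreated replicate 2 or copper replicate 3. NR2F1, an orphan nuclear receptor, went from 26.8, 26.2 and 25.4 CPM to 9.84, 10.7 and 10.2 CPM (log2 fold change −1.35 ± 0.09), and EMX2, a homeodomain factor of the urogenital tract, fell by 1.35 ± 0.17. MECOM fell by 0.73 ± 0.04, MSX1 fell by 0.73 ± 0.09, and MEIS1, a cofactor of HOX proteins, fell by 0.67 ± 0.06. PAX8, the most used marker of the lineage, was less affected, at 427, 439 and 446 CPM and 365, 377 and 357 CPM (log2 fold change −0.25 ± 0.03), and SOX17, a factor of gland epithelium, was not called (−0.25 ± 0.13).

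Of 39 listed HOX genes 19 were tested, 9 fell and 1 rose, and none rose without untreated replicate 3, copper replicate 1 or copper replicate 3. The share called, 52.6%, was near the 50.8% of all genes, with 5.3% higher and 47.4% lower, beside 25.6% and 25.2%. The median was −0.36, and DESeq2 called 4 lower and 0 higher. HOXD13 fell by 1.05 ± 0.15 and HOXA13, a factor of the lower duct, fell by 0.70 ± 0.14. HOXA10, the best known HOX gene of the endometrium, had −0.19 ± 0.07 (edgeR adjusted p = 0.016), a call lost without untreated replicate 2, copper replicate 2 or copper replicate 3. Among 31 tested SOX, FOX and GATA factors 7 rose (22.6%) and 10 fell (32.3%), beside 25.6% and 25.2% of all genes. The median was −0.08, and both limma fits of log2 TPM gave 1 higher and 6 lower. SOX4 went from 77.5, 77.9 and 81.1 CPM to 26.97, 25.03 and 21.9 CPM (log2 fold change −1.68 ± 0.06), and SOX9, a factor of gland progenitors, fell by 0.64 ± 0.05.

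Products of glandular epithelium fell in most tested cases too: of 63 listed genes 30 were tested, 4 rose and 18 fell, with a median of −0.44 that was −0.73 without copper replicate 2. MUC5B, a gel-forming mucin, stood at 14.9, 14.5 and 16.3 CPM untreated and 2.49, 2.52 and 1.72 CPM with copper (log2 fold change −2.75 ± 0.15, edgeR adjusted p = 3.0e-19). SMR3B, a proline-rich secretory protein of salivary glands, went from 24.2, 21.01 and 24.7 CPM to 3.92, 5.18 and 3.84 CPM. AGR2, the disulfide isomerase needed for mucin folding, went from 28.9, 30.9 and 27.6 CPM to 10.4, 12.3 and 10.1 CPM (log2 fold change −1.41 ± 0.09), and MUC6, another gel-forming mucin, from 7.19, 6.904 and 6.87 CPM to 1.56, 2.26 and 3.64 CPM. FOLR1, the folate receptor of gland cells, fell by 1.24 ± 0.13. The members that rose were ELAPOR1 (1.62 ± 0.28), the surface protein mesothelin, MSLN (1.08 ± 0.17), the phosphoprotein osteopontin, SPP1 (0.51 ± 0.07), and the protease inhibitor SLPI (0.31 ± 0.07).

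Keratins leaned upward. Of 55 listed genes 22 had no count and 15 were tested, of which 6 rose and 2 fell, with a median of 0.35. The share called, 53.3%, was near the 50.8% of all genes, with 40.0% higher and 13.3% lower, beside 25.6% and 25.2%. KRT8, a keratin of simple epithelium, stood at 1400.1, 1419 and 1410.2 CPM untreated and 1747, 1811 and 1840.5 CPM with copper (log2 fold change 0.35 ± 0.03). Its partner KRT18 rose by 0.31 ± 0.03 and KRT19 rose by 0.23 ± 0.03, so all 3 simple keratins were higher in every copper library. KRT80, a keratin of differentiating epithelia, went from 55.4, 61.6 and 59.4 CPM to 139, 122 and 140.03 CPM (log2 fold change 1.18 ± 0.05), and KRT17, a keratin of stressed epithelium, rose by 1.83 ± 0.19. KRT23 fell by 1.90 ± 0.36. Reads of keratins with similar sequence may be shared.

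Genes typical of neurons rose more often than they fell: of 56 listed 28 were tested, 14 rose and 5 fell, with a median of 0.44. The size of the median depended on the processing. It was 0.26 with a filter of 1 CPM in 3 libraries (11 higher, 5 lower) and 0.80 with no count filter (16 and 5). The limma fits of log2 TPM gave 0.17 and 0.22 (10 and 5 in both), and DESeq2 gave 0.68 (15 and 5). MAP1B, a microtubule-associated protein of growing axons, stood at 24.9, 24.9 and 30.6 CPM untreated and 149.9, 146 and 171 CPM with copper (log2 fold change 2.54 ± 0.09), and its relative MAP1A moved alike, from 5.07, 4.97 and 7.71 CPM to 57.99, 56.4 and 62.9 CPM. TUBB3, a tubulin of neurons, rose by 0.79 ± 0.09, UCHL1, a deubiquitinating enzyme, rose by 1.15 ± 0.09, and L1CAM, a neural adhesion molecule, rose by 0.87 ± 0.09. PPP1R1B, the phosphatase inhibitor DARPP-32, fell from 218, 210.5 and 218 CPM to 40.9, 48.6 and 35.8 CPM. NCAM1, a defining adhesion molecule of neural and neuroendocrine cells, had 0 counts untreated and 1 with copper. Whether such cells had a part in these values was not tested.

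Genes of multiciliated cells gave none higher and 5 lower of 14 tested, with a median of −0.57, and 3 fell without untreated replicate 3. The 35.7% called, all lower, stand beside 25.2% of all genes lower and 50.8% called in either direction. The number that fell was also 3 with DESeq2, with a filter of 1 CPM in 3 libraries and in both limma fits of log2 TPM, and 6 with limma-voom. With that filter the median was −0.39, and the limma fits of log2 TPM gave −0.31 and −0.41. MYB, a factor of the ciliated cell program, stood at 9.16, 12.2 and 11.8 CPM untreated and 6.35, 7.501 and 6.795 CPM with copper (log2 fold change −0.69 ± 0.13). FOXJ1, the defining factor of that cell type, had 35 counts over the untreated libraries and 8 with copper. Of 58 listed squamous genes only 7 were tested, and 1 rose and 2 fell (42.9% called, beside 50.8% of all genes). Without copper replicate 3, 3 rose and 2 fell, and with no count filter 4 rose and 2 fell.

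The list of mesenchymal genes held members that moved in opposite directions, with 9 higher and 6 lower of 24 tested and a median of 0.09 that was −0.05 with DESeq2. AXL, a receptor tyrosine kinase, stood at 104, 106 and 100.5 CPM untreated and 240.4, 233 and 249 CPM with copper (log2 fold change 1.22 ± 0.04). TAGLN, an actin-binding protein of contractile cells, rose by 1.53 ± 0.09, CDH2, N-cadherin, rose by 0.91 ± 0.16, and ZEB1, a repressor of E-cadherin, rose by 0.89 ± 0.25. VIM, vimentin, had −0.71 ± 0.14 and was not called on the TPM scale. CDH1, E-cadherin, was not called (−0.07 ± 0.03, edgeR adjusted p = 0.085). Over 20 epithelial markers, 8 rose and 5 fell, and their sum was 5922 to 5995 CPM untreated and 6596 to 6712 CPM with copper.

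The copper response of KLE cells was then set against that of Ishikawa cells in a fit of all 12 libraries, while the values given for each line come from its own 6 libraries. The difference was called for 6206 of 13663 genes (45.4%), with 3358 above 0 (24.6%), where KLE cells had the higher change, and 2848 below 0 (20.8%). With library totals as the scaling, 63.9% of called differences lay above 0 instead of 54.1%, and the median of all differences was 0.10. The balance turned with RLE scaling (47.9% above 0) and with DESeq2 (46.1%). It also turned without untreated replicate 1 (47.0%) or copper replicate 3 (47.4%) of KLE cells, or without copper replicate 1 (45.4%), 2 (45.9%) or 3 (46.3%) of Ishikawa cells. No direction is therefore read from it. In 350 genes (2.56%) copper was called in opposite directions in the lines and the difference was called. The content lists held 52 such genes, 33 of them higher in KLE cells and lower in Ishikawa cells and 19 the reverse. DKK1 had a log2 fold change of 2.55 ± 0.19 in KLE cells and −0.74 ± 0.35 in Ishikawa cells, not called there, a difference of 3.34 ± 0.39 (edgeR adjusted p = 3.2e-07). DKK3, a secreted relative of DKK1, had 0.43 ± 0.04 and −1.27 ± 0.09, and SDC1 0.60 ± 0.05 and −0.63 ± 0.07.

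The simple keratins were opposite as well: KRT8 had 0.35 ± 0.03 in KLE cells and −0.71 ± 0.05 in Ishikawa cells, and KRT18 0.31 ± 0.03 and −0.41 ± 0.06. BNIP3, a mitophagy receptor, had 0.36 ± 0.07 and −1.64 ± 0.08, a difference of 2.05 ± 0.10. GDF15 was lower in KLE cells (−0.89 ± 0.09) and higher in Ishikawa cells (0.38 ± 0.08). LCN2, the iron-siderophore binder lipocalin 2, had −0.49 ± 0.11 and 0.65 ± 0.07, though its call in KLE cells was lost without untreated replicate 1, untreated replicate 3 or copper replicate 3. TNF, the cytokine, had −0.52 ± 0.19 and 2.01 ± 0.37, and its call in KLE cells was lost without untreated replicate 1, untreated replicate 3 or copper replicate 1, where it was −0.28. The hemidesmosomal laminin chain LAMB3 rose in both lines, by 0.95 ± 0.03 and 2.90 ± 0.07, a called difference of −1.90 ± 0.07. In the mitochondrial genome MT-CO1 was called lower in both lines, at −0.80 ± 0.11 and −0.28 ± 0.03 (difference −0.47 ± 0.11, edgeR adjusted p = 0.0062), while MT-ND1 was −0.17 ± 0.10 and 0.47 ± 0.06.

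**Figure D5:**
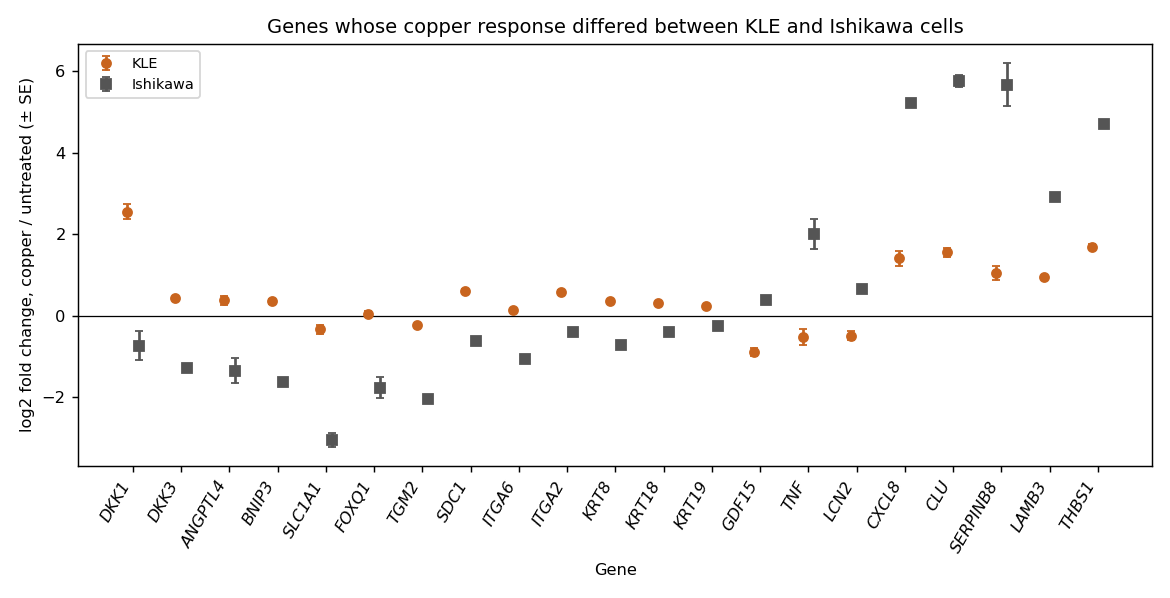
Log2 fold change with copper (± SE) in KLE cells (circles) and Ishikawa cells (squares), from 3 libraries per group, for genes whose difference between the lines was called. From DKK1 to KRT19 the KLE value is the higher one, and from GDF15 to THBS1 the Ishikawa value. The genes were chosen after their values were seen.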

How the data were processed

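RNA was extracted with TRIzol, enriched with oligo(dT) beads and sequenced as 150-base paired ends, per the labels' protocols. The genome build was GRCh38.p14, and R 4.2.2, HISAT2 2.1.0, Bowtie2 2.2.8, fastp 0.18.0, DESeq2 and RSEM were used, per the submitters' processing notes. What each tool did, the annotation release and the use of strand are not stated in these notes. The deposited counts are whole numbers that lie within 0.5 of the expected counts in the authors' table of all genes. Values deposited under an FPKM name are TPM, per the file headers. The tables hold 20332 genes, 617 of them without a symbol and 58 rows with a shared symbol, and 20113 IDs matched GENCODE 29 on GRCh38, which gave the gene coordinates.

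Counts of the 6 KLE libraries were fitted with edgeR 4.0.16 (R 4.3.3; TMM factors, filterByExpr, robust quasi-likelihood test, Benjamini-Hochberg adjustment, threshold 0.05). The standard error is the log2 fold change divided by the square root of F. The difference between the lines was tested as an interaction over all 12 libraries. Alternatives used other scalings and count filters, DESeq2 1.42.0, limma 3.58.1 on voom weights and on log2(TPM + 1) and log2(TPM + 0.1), each library left out, and a replicate block. In simulated counts for the KLE comparison, with 200 of 13031 genes changed, 82% were recovered at 1.5-fold, 88% at 2-fold, 98% at 4-fold and 100% at 8-fold, and 7.54% of calls were false. In the data 50.8% of genes were called, with a median size of 0.33 on the log2 scale, a setting that was not simulated. The simulated shares therefore do not carry over to the data.

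The gene lists and the genes described were chosen with earlier results of these data known, and the lists were edited once after a first look at values. The rule named, in each list, up to 3 called genes per direction with at least 1 CPM in the higher group and no overlap between groups. It also named all 13 mitochondrial genes, the tested copper enzymes, 12 genes per direction over all genes with at least 5 CPM, and 8 list members per direction for the difference between the lines. Genes outside that rule, chosen after their values were seen, were ADM, AGR2, AXL, CDH1, CDH2, COL4A2, COL4A4, COL4A5, DCN, DKK3, EPCAM, ESR1, FBN2, FN1, FOLR1, FOXJ1, FOXO1, HBEGF, HOXA10, HSPA9, HSPG2, ITGA6, ITGB4, KRT18, KRT19, L1CAM, LAMA3, LAMA5, LAMB1, LAMB2, LAMC1, LCN2, LRPPRC, MAP1B, MDK, MECOM, MEIS1, MIF, MSX1, MT2A, MUC6, NCAM1, PGR, PLAU, PLAUR, POLRMT, PTPRC, SLC2A1, SLC31A1, SLC3A2, SLPI, SOX17, SOX9, TFAM, TGFA, TNF, TUBB3, UCHL1, WFDC2 and ZEB1. Replicates of a group differed by more than sampling noise (chi-square per degree of freedom 2.17 to 3.57), so no library was counted as a copy of another. A few genes of the lists are not reported here by name.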

Additional observations from a re-analysis of the deposited data

Results flagged for a closer look

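The copper response differed between KLE and Ishikawa cells, by the interaction test of edgeR, in 6206 genes. Among the listed genes, those with the highest value of KLE minus Ishikawa were DKK1 at 3.34, the glutamate carrier SLC1A1 at 2.77, BNIP3 at 2.05, the monoamine carrier SLC18A2 at 1.97, SRPX at 1.96, the transcription factor FOXQ1 at 1.88, TGM2 at 1.865 and the protease ADAMTS18 at 1.81, all on the log2 scale. SLC1A1 had a log2 fold change of −0.34 ± 0.10 in KLE cells and −3.05 in Ishikawa cells, and TGM2 −0.24 ± 0.03 and −2.05, so both fell in each line. FOXQ1 was not called in KLE cells (0.04 ± 0.08).

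The lowest values were those of the natriuretic peptide NPPC at −4.62, the protease inhibitor SERPINB8 at −4.56, IGF2 at −4.53, the cytokine IL32 at −4.43, the endothelial factor SOX18 at −4.19, CLU at −4.15 and the chemokines CCL20 at −3.79 and CXCL8 at −3.77. CLU rose in both lines, by 1.55 in KLE cells and 5.76 in Ishikawa cells. NPPC and CCL20 had too few counts in KLE cells to be tested there, with 8 and 27 counts over the untreated libraries and 23 and 32 with copper. Fitted differences of such genes depend on the prior count.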

How the results depend on the processing

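With 1 library left out, 5844 to 6238 genes were called for the KLE response, 5668 to 5953 of them among the 6617 called with all 6, and 5598 to 6530 for the difference between the lines, 5319 to 5920 of them among the 6206. DESeq2 called 5209 genes and 5471 differences. With limma, 2120 genes were higher on log2(TPM + 1) and 2108 on log2(TPM + 0.1), against 3330. Requiring a log2 fold change of at least 1 left 710 genes, 242 higher and 468 lower. Higher genes made up 50.3% of calls, but 40.5% with upper-quartile scaling, 43.4% with library totals and 44.6% and 44.7% in the TPM fits. No call took the opposite direction in the count fits, and 1 did in the TPM fits. Of 305 called genes followed singly, 242 kept call and direction in every alternative that tested them, 63 lost the call somewhere and 0 changed direction. The replicate block gave 6193 calls, 6169 of them shared with the fit without it, and 6145 differences. Libraries with the same number had correlations of −0.13, −0.05 and −0.10 between their deviations, and the numbers were not used as pairs in the main test. With 3 libraries per group, these values cannot show whether same-numbered cultures were handled together. With the block, 4 mitochondrial genes were called instead of 8. Genes under the count filter, ESR1 and PGR among them, gave no test at this depth.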
